A study of Mus musculus with 9 samples.

Results

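The 10 genes described here encode antioxidant and detoxifying proteins, many of them linked to the transcription factor NRF2. Their levels were followed in bone-marrow-derived macrophages (BMDMs) given the bacterial TLR4 agonist lipopolysaccharide (LPS) with or without an LXR agonist. The genes were Slc7a11, Gclc, Gclm, Gsr, Txnrd1, Prdx1, Srxn1, Sod2, Hmox1 and Nqo1. They were found by symbol among the 24061 gene symbols of the count table, where they held 13 rows, and the reads of a symbol's rows were added up. BMDMs are primary macrophages grown from bone marrow, here from young adult female C57BL/6J mice, in L-cell conditioned medium for 7 days and then through a day of serum deprivation. In the Veh group the cells received DMSO alone. In the LPS group they received DMSO and then LPS at 10 ng/mL for 2 hr, and in the T0+LPS group they received T0901317 (T0), an LXR agonist, at 500 nM from 3 hr ahead of the same LPS dose. Each group had 3 libraries of polyadenylated RNA, which the methods describe as separately differentiated cultures. The time at which Veh cells were collected is not given in the sources used here, and no group received T0 without LPS, so the comparison of T0+LPS with LPS measured T0 in stimulated cells only.

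NRF2, encoded by Nfe2l2, is held low in resting cells by KEAP1, which hands it to a CUL3 ubiquitin ligase for destruction. Electrophiles and oxidants modify KEAP1, NRF2 then accumulates, pairs with a small MAF protein and binds antioxidant response elements, from which the repressor BACH1 is displaced by heme. The target genes import cystine, make and recycle glutathione, drive the thioredoxin and peroxiredoxin cycle, break down heme and reduce quinones. Several of the genes described here are also driven by other factors, such as NF-kB at Sod2 and ATF4 at Slc7a11.

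The promoters of 5 members are shown because the LPS response set these genes apart from each other and because their windows held matches to the motifs listed below. A window of Txnrd1 also held a match and is not printed. Each window runs from 250 bases before to 50 bases after the start of the gene's transcript and is written 5′ to 3′ on the gene's own strand, from RefSeq on GRCm38.p6 (mm10). The table gave windows for 7 of the 10 members. Capitals mark matches on either strand to the core antioxidant response element TGACNNNGC (Gclm, Srxn1, Prdx1), the AP-1 site TGANTCA (Srxn1, Prdx1), the C/EBP-ATF site TGATGNAA (Slc7a11) and the NF-kB consensus (Prdx1, Sod2).
Slc7a11, chr3:50443564-50443863, minus strand: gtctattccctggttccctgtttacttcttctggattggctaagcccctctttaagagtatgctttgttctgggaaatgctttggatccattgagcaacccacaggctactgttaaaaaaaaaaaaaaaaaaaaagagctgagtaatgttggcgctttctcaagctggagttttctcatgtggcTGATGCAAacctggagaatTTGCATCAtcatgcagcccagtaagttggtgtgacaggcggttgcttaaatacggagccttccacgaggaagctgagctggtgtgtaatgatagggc
Sod2, chr17:13007589-13007888, plus strand: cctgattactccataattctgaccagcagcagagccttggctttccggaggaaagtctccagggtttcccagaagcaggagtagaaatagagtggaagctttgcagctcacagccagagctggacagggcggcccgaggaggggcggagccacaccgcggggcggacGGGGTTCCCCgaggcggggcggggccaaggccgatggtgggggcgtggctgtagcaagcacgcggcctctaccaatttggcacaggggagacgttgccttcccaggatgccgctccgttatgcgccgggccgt
Srxn1, chr2:152105274-152105573, plus strand: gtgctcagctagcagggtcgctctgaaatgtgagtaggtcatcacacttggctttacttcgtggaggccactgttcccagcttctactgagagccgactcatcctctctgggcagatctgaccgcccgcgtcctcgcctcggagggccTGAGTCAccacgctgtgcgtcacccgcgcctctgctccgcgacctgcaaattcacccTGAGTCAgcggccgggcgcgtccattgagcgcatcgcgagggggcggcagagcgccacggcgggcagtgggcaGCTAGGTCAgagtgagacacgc
Prdx1, chr4:116685349-116685648, plus strand: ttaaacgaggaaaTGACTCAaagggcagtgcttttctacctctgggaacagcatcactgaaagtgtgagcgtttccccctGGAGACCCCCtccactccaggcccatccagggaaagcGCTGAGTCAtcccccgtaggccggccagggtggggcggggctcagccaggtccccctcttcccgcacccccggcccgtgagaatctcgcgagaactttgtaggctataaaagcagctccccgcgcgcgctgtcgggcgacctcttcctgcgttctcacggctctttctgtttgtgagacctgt
Gclm, chr3:122245307-122245606, plus strand: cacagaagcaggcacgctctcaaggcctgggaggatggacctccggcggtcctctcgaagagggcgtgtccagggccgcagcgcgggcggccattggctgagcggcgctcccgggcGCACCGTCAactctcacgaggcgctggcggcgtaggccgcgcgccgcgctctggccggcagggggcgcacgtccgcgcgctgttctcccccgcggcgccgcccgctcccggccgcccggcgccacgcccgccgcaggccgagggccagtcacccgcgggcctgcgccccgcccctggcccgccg

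Slc7a11 held 2 C/EBP-ATF matches, from -66 to -59 and from -47 to -40 relative to the start, facing each other, and 3.97% of the 32851 RefSeq windows of this length held at least 1 such match. Sod2 held an NF-kB match from -83 to -74, a motif found in 8.46% of windows. Srxn1 held AP-1 matches from -102 to -96 and from -45 to -39 and an antioxidant response element core from 29 to 37. In Prdx1 the antioxidant response element core from -133 to -125 contained an AP-1 match from -131 to -125, so those are 2 readings of the same bases. A further AP-1 match lay from -237 to -231 and an NF-kB match from -170 to -161. Gclm held an antioxidant response element core from -134 to -126. Over all windows 12.4% held the antioxidant response element core and 7.81% the AP-1 site. Of the 3 Txnrd1 windows, the one whose start is shared by transcripts 3 and 4 held an antioxidant response element core from -92 to -84, and the windows of transcripts 1 and 2 and the window of Nqo1 held no match to these letters. Sequence outside these windows was not searched, so a window without a match does not show that the gene lacks such an element. A match describes the sequence only, and binding was not measured.

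**Figure D1:**
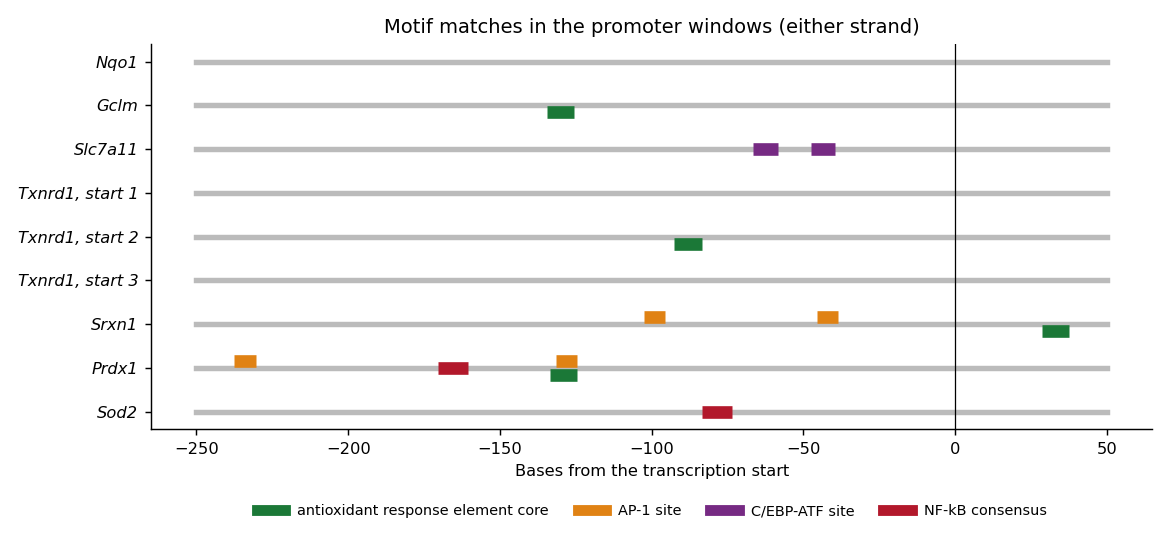
Motif matches in the 300-base promoter windows of 7 members, with bases from the transcription start on the horizontal axis. Each grey bar is a window, coloured blocks are matches on either strand, and Slc7a11 shows 2 C/EBP-ATF matches upstream of its start while Sod2 shows 1 NF-kB match.

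Levels are given as CPM, a gene's reads relative to the size of its library, after scaling by TMM factors, which correct for differences in library composition. A gene was called changed where the quasi-likelihood test of edgeR, run on the 6 libraries of the groups compared, gave an adjusted p (Benjamini-Hochberg, over all symbols tested) under 0.05. All 10 members passed the filter on low counts in each of the 3 comparisons. Libraries held between 13299044 and 16467983 reads. TMM factors were between 1.136 and 1.144 in Veh and between 0.931 and 0.948 in the stimulated groups, so comparisons with Veh depended on the scaling. Scaled by library totals, the median log2 fold change of all genes moved from -0.0019 to -0.284 in LPS against Veh, and called genes went from 51.4% higher and 48.6% lower to 23.9% higher and 76.1% lower. In T0+LPS against Veh that median moved from -0.026 to -0.289 and the split from 49.6% higher to 23.1% higher. The labels were checked on Tnf, an LPS-induced cytokine gene that rose from 0.0812 ± 0.0442 CPM in Veh to 5.84 ± 0.832 CPM in LPS (SD, n = 3) on its 48 unshared bases, and on Abca1, an LXR target that rose from 1840.5 ± 159 CPM in LPS to 5105 ± 185 CPM in T0+LPS (SD, n = 3). Summed macrophage markers lay between 27345 and 29594.5 CPM in Veh, 32779 and 34168 CPM in LPS, and 35600 and 36990 CPM in T0+LPS. These ranges did not overlap. Lyz2 led the sum, and Itgam had 0 reads on its 3 unshared bases. With LPS, 4 of the 7 macrophage markers tested were called higher, such as Cd14 (3.32-fold), and 1, Fcgr1, was called lower (0.559-fold). None of the 7 was called with T0 on top of LPS. The summed markers of neutrophils, lymphocytes, stromal cells, erythroid cells, mast cells and dendritic cells each stayed at or under 3.28 CPM in every library. S100a9 and the erythroid markers Hba-a1, Hbb-bs, Hbb-bt and Alas2 had 0 to 45 unshared bases each and were hardly measurable. The neutrophil marker S100a8 (0.987 CPM in Veh, 2.28 CPM in LPS) and the dendritic cell marker Xcr1 (0.248 CPM in Veh, 1.79 CPM in LPS) were called higher with LPS, by 2.33-fold and 7.45-fold, and neither was called with T0 on top of LPS. Their part in the results was not tested.

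LPS raised 6 of the 10 genes over Veh, lowered none and left 4 without a call. The steepest increases were those of the cystine importer Slc7a11, at 21.3-fold, and the mitochondrial superoxide dismutase Sod2, at 14.7-fold. Txnrd1, Srxn1, Gsr and Prdx1, all of the thioredoxin and disulfide-reducing branch, rose by 1.27-fold to 3.78-fold. The upper value is that of Txnrd1, which was counted on 602 unshared bases only and not over the whole gene. Hmox1, Nqo1, Gclm and Gclc were not called. Over all 9559 symbols tested 32.9% were called higher and 31.2% lower, so a call is common in this comparison. The 3 LPS libraries lay above the 3 Veh libraries for the same 6 members, against 33.6% of all symbols. The median log2 fold change of the members was 0.48, beside -0.0019 for all symbols. Neither limma-voom nor DESeq2 called a member lower, and no member fell at an unadjusted p under 0.05 with edgeR, limma-voom or DESeq2. With library totals as the scale, 5 members were called higher, since Prdx1 lost its call, and Hmox1 and Gclm were called lower.

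T0 changed 2 of the 10 genes in LPS-stimulated cells. Hmox1 rose by 25.7%, and Slc7a11, the gene LPS raised most, fell by 21.2%. With LPS alone Hmox1 was not called under TMM scaling and was called lower with library totals. The other 8 were not called, although without LPS replicate 3 Gclm was also called higher, which made 2. Among 9348 symbols tested 1.35% were called higher and 1.83% lower. The groups did not overlap for Hmox1, which was higher, or for Slc7a11 and Sod2, which were lower in T0+LPS, against 9.51% of all symbols in the upward and 9.62% in the downward direction. The median log2 fold change over the members was 0.01, beside 0.0028 for all symbols. With 3 libraries against 3, an exact permutation test of a single gene cannot go below p = 0.1, the value it gave for every member whose groups did not overlap.

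**Figure D2:**
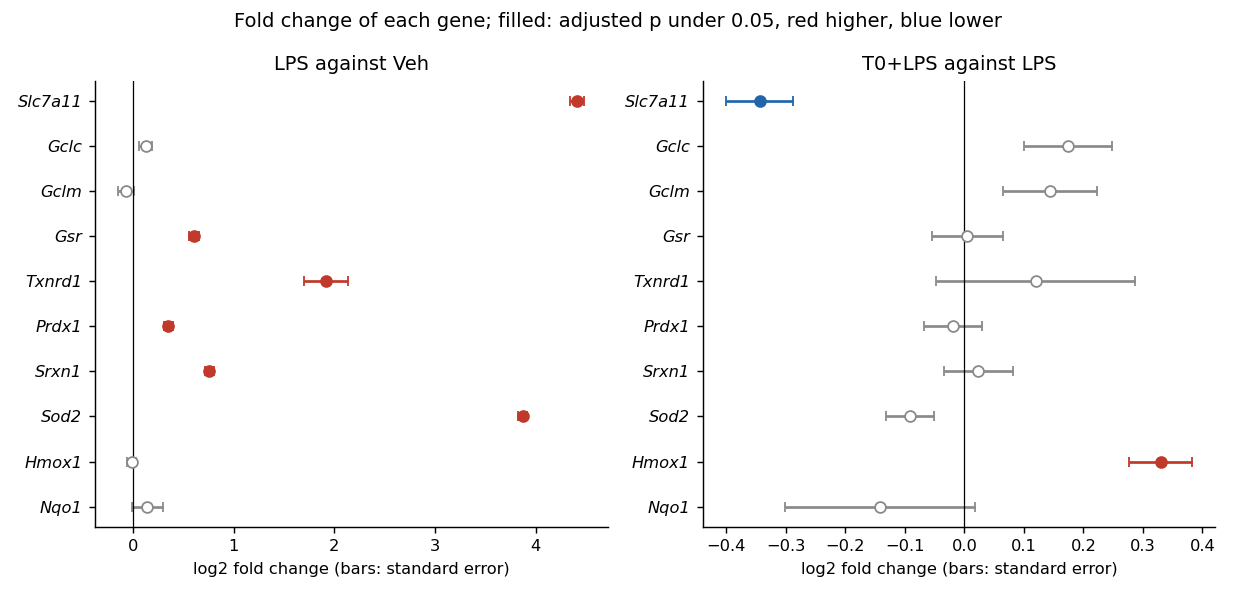
Log2 fold change of the 10 genes in LPS against Veh (left) and in T0+LPS against LPS (right), with bars of 1 standard error; the horizontal scales differ between panels. With TMM scaling, filled points passed the adjusted p threshold, with 6 red points on the left, and Hmox1 (red) and Slc7a11 (blue) on the right.

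Slc7a11 encodes the light chain of the cystine-glutamate exchanger, which supplies the cysteine for glutathione. Its 12 exons, of 9227 bases in all, lie between 50364936 and 50443613 of chromosome 3 (mm10, minus strand). It stood at 20.8, 17.98 and 20.1 CPM in the 3 Veh libraries, at 419.8, 383 and 455 CPM in LPS and at 333, 329 and 329 CPM in T0+LPS. The 3 groups did not overlap, and the T0+LPS libraries sat closely together between the other groups. The log2 fold change of LPS against Veh was 4.41 (standard error 0.07, adjusted p = 1.46e-17, edgeR). T0 on top of LPS gave -0.34 (standard error 0.06, adjusted p = 0.00233, edgeR). After T0 the gene was therefore still 16.5-fold above Veh (log2 fold change 4.04, standard error 0.05, adjusted p = 1.15e-18, edgeR). The paired C/EBP-ATF matches shown above lie in the window of this gene.

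Gclc and Gclm encode the catalytic and the modifier subunit of glutamate-cysteine ligase, the enzyme of the first step of glutathione synthesis. Gclc stood at 105, 89.6 and 96.7 CPM in Veh, 107, 95.6 and 115 CPM in LPS and 133, 113 and 112 CPM in T0+LPS. Neighbouring groups overlapped, while all T0+LPS libraries lay above all Veh libraries. Its log2 fold change was 0.12 in LPS against Veh (standard error 0.07, adjusted p = 0.129, edgeR) and 0.17 in T0+LPS against LPS (standard error 0.07, adjusted p = 0.301, edgeR). T0+LPS against Veh passed the threshold, at 0.27 (standard error 0.07, adjusted p = 0.00208, edgeR), and with library totals as the scale this value was 0.01. Without LPS replicate 2 or without Veh replicate 1 the LPS response of Gclc was called, at 0.18 in both fits.

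Gclm stood at 135, 116 and 118 CPM in Veh, 112, 106 and 133 CPM in LPS and 135, 136 and 117 CPM in T0+LPS. The groups overlapped throughout. The log2 fold changes were -0.07 (standard error 0.08, adjusted p = 0.42) in LPS against Veh, 0.14 (standard error 0.08, adjusted p = 0.46) in T0+LPS against LPS and 0.05 (standard error 0.06, adjusted p = 0.535) in T0+LPS against Veh, all from edgeR. LPS replicate 3 was the highest of its group. Without that library Gclm was called lower with LPS, at -0.19 (adjusted p = 0.0133, edgeR), and higher with T0 on top of LPS, at 0.25 (adjusted p = 0.0411, edgeR). Both comparisons use the LPS libraries, so these calls are not independent of each other. Glutathione reductase, encoded by Gsr, returns oxidised glutathione to its reduced form with NADPH. Gsr stood at 161, 151 and 153 CPM in Veh, 225, 239 and 242 CPM in LPS and 241, 253 and 215 CPM in T0+LPS. It rose 1.52-fold with LPS (log2 fold change 0.61, standard error 0.05, adjusted p = 7.14e-09, edgeR), and T0 gave 0.0050 on the same scale (standard error 0.06, adjusted p = 0.984, edgeR).

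Txnrd1 encodes cytosolic thioredoxin reductase, which keeps thioredoxin reduced. It has 4 rows on chromosome 10 of mm10, all ending at 82897724 on the plus strand, and reads falling on bases that rows share were not counted. Transcripts 3 and 4 shared every base and held no read in any library. The gene was therefore measured on 419 bases of transcript 1 (82833951 to 82834031 and 82872938 to 82873275) and 183 bases of transcript 2 (82860341 to 82860523). Their sum stood at 0.962, 0.992 and 1.45 CPM in Veh, 3.96, 3.86 and 5.10 CPM in LPS and 4.57, 4.67 and 4.78 CPM in T0+LPS, which describes these transcripts' own bases and not the whole gene. Both stimulated groups lay above Veh and overlapped each other. The log2 fold change was 1.92 with LPS (standard error 0.22, adjusted p = 1.39e-06, edgeR) and 0.12 with T0 on top of LPS (standard error 0.17, adjusted p = 0.831, edgeR).

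The transcripts were also tested apart. Transcript 1, whose first exon is the most upstream, had 11, 9 and 12 reads in Veh, 40, 36 and 46 in LPS and 56, 51 and 53 in T0+LPS. Its log2 fold change with LPS was 2.30 (standard error 0.25, adjusted p = 6.98e-07, edgeR). Transcript 2 had 7, 6 and 13 reads in Veh, 10, 17 and 20 in LPS and 4, 16 and 16 in T0+LPS, so its groups rested on few reads. Its log2 fold change with LPS was 1.22 (standard error 0.37, adjusted p = 0.00919, edgeR). Neither transcript was called with T0 on top of LPS, at 0.30 (standard error 0.19) and -0.47 (standard error 0.41). A difference between the transcripts was not tested.

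Prdx1 encodes a cytosolic peroxiredoxin that breaks down hydrogen peroxide, and Srxn1 encodes sulfiredoxin, which repairs peroxiredoxins that have been over-oxidised. Prdx1 stood at 2570.45, 2409 and 2509 CPM in Veh, 3246, 3304 and 2968 CPM in LPS and 3268, 2978 and 3143 CPM in T0+LPS. LPS raised it 1.27-fold (log2 fold change 0.35, standard error 0.05, adjusted p = 5.38e-06, edgeR), but with library totals the value was 0.07 (adjusted p = 0.171, edgeR). T0 gave -0.02 (standard error 0.05, adjusted p = 0.923, edgeR). Prdx1 overlaps AV051173, and 1401 of its 1417 bases were its own. Srxn1 stood at 371, 331 and 346 CPM in Veh, 565, 597 and 608 CPM in LPS and 659.6, 568 and 570.2 CPM in T0+LPS. It rose 1.69-fold with LPS (log2 fold change 0.76, standard error 0.05, adjusted p = 7.29e-10, edgeR), and T0 gave 0.02 (standard error 0.06, adjusted p = 0.921, edgeR). For both genes the stimulated libraries lay above the Veh libraries, and LPS and T0+LPS overlapped.

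Sod2 encodes the manganese superoxide dismutase of mitochondria and is a textbook NF-kB target. Its mm10 position is chromosome 17, 13007839 to 13018119, plus strand. It stood at 81.3, 78.7 and 79.5 CPM in Veh, 1181, 1155 and 1168 CPM in LPS and 1070.0, 1099.8 and 1117 CPM in T0+LPS. On the log2 scale LPS gave 3.87 (standard error 0.04, adjusted p = 1.71e-19, edgeR). All T0+LPS libraries lay below all LPS libraries, by 6.18% on average, and this difference did not reach the threshold (log2 fold change -0.09, standard error 0.04, unadjusted p = 0.0392, adjusted p = 0.321, edgeR). Against Veh, T0+LPS was 13.5-fold higher (adjusted p = 7.9e-20, edgeR).

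Hmox1 encodes heme oxygenase 1, which opens the heme ring to biliverdin, carbon monoxide and iron. Its 5 exons lie between 75093618 and 75100593 of chromosome 8 (mm10, plus strand). It stood at 369, 342 and 353 CPM in Veh, 338, 359 and 355 CPM in LPS and 466, 447 and 409 CPM in T0+LPS. Veh and LPS overlapped, and each T0+LPS library lay above the 6 others. On the log2 scale LPS gave -0.01 (standard error 0.04, adjusted p = 0.795, edgeR). T0 on top of LPS gave 0.33 (standard error 0.05, adjusted p = 0.0021, edgeR) and T0+LPS against Veh gave 0.29 (standard error 0.05, adjusted p = 4.31e-05, edgeR). With library totals as the scale, Hmox1 was called lower with LPS, at -0.30 (adjusted p = 1.99e-05, edgeR), and T0+LPS against Veh was 0.03, while the value of T0+LPS against LPS remained 0.32.

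Nqo1 encodes the quinone reductase that is often used as a readout of NRF2 activity. It stood at 7.27, 5.49 and 7.82 CPM in Veh, 6.42, 7.64 and 8.72 CPM in LPS and 8.37, 6.34 and 6.03 CPM in T0+LPS. The groups overlapped in every comparison. Its log2 fold changes were 0.14 (standard error 0.15, adjusted p = 0.427) with LPS and -0.14 (standard error 0.16, adjusted p = 0.783) with T0 on top of LPS, both from edgeR, and with library totals the first of these turned to -0.14. Nqo1 had between 81 and 136 reads in a library, against 4267 to 6908 for Hmox1, and its standard error in T0+LPS against LPS was 0.16, against 0.05 for Hmox1.

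**Figure D3:**
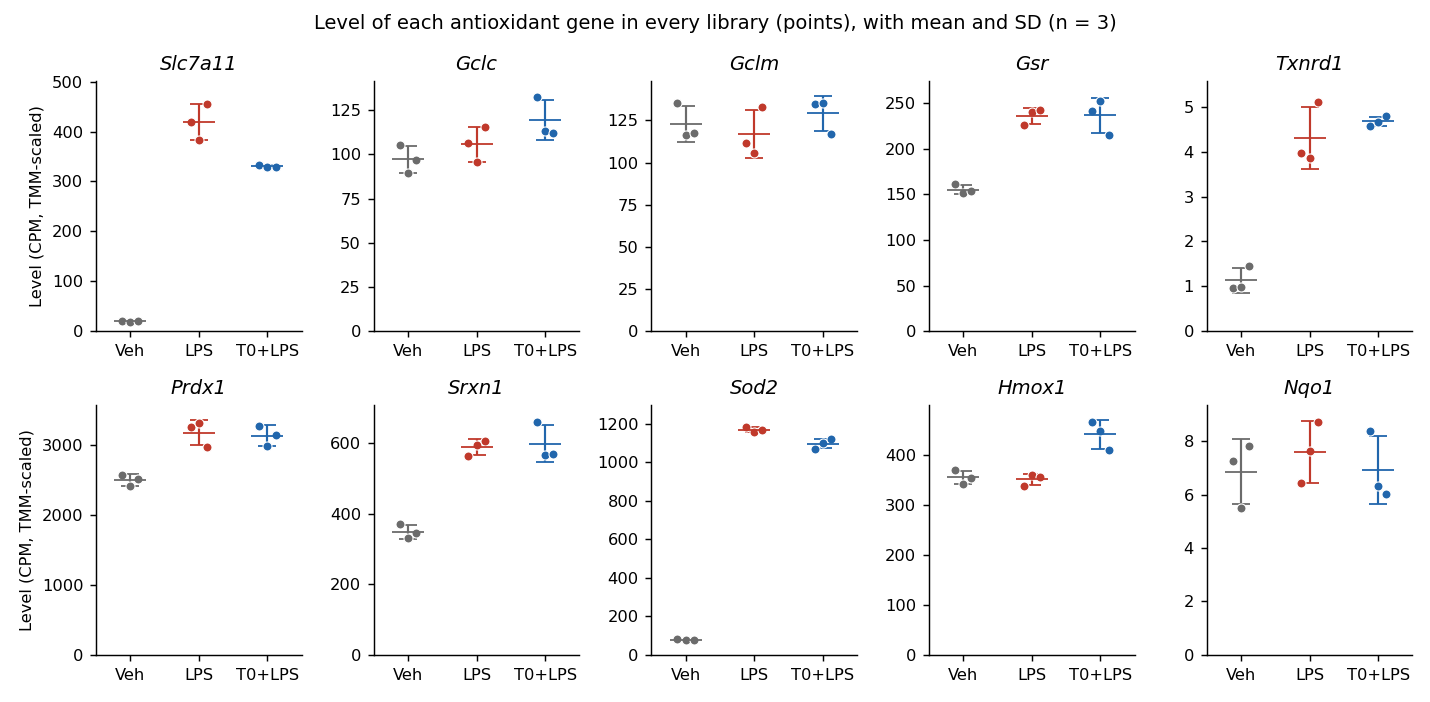
Level of the 10 genes in every library, in CPM on linear axes that start at 0, one panel a gene. Points are libraries and bars the mean with SD (n = 3): Slc7a11 and Sod2 rose from 19.6 and 79.8 CPM in Veh to 419 and 1168 CPM in LPS, and Hmox1 was highest in T0+LPS.

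T0+LPS against Veh, which shares its libraries with the other comparisons, gave 8 members called higher and 0 lower by edgeR, DESeq2 and limma-voom alike, none of them lower at an unadjusted p under 0.05. Of 9636 symbols tested 32.4% were called higher and 32.9% lower. The 8 were all members but Nqo1 and Gclm, and for these 8 the groups did not overlap, against 35.6% of all symbols. The median log2 fold change over the members was 0.44, beside -0.026 for all symbols. With library totals as the scale, 5 members were called higher and Gclm was called lower, at -0.22 (adjusted p = 0.00634, edgeR).

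Levels can be set side by side between genes only per length, here as CPM per kilobase of the bases a gene does not share. In Veh the order was Prdx1 at 1782, Hmox1 at 225, Srxn1 at 124, Gclm at 59.3, Gsr at 58.1, Gclc at 28.4, Sod2 at 20.9, Nqo1 at 4.42, Slc7a11 at 2.13 and Txnrd1 at 1.88 CPM per kilobase. The value of Txnrd1 covers the 602 unshared bases of transcripts 1 and 2, while transcripts 3 and 4 could not be counted, so its place as a gene is unknown. In that order the libraries of Gclm and Gsr overlapped, as did those of Slc7a11 and Txnrd1, and the other neighbours did not. LPS moved Sod2 to the second place, at 305 ± 3.30 CPM per kilobase (SD, n = 3), above Hmox1 at 223 ± 7.05, and carried Slc7a11 to 45.5 ± 3.91, above Gclc at 30.9 ± 2.88 (SD, n = 3). Hmox1 and Srxn1, neighbours in LPS, overlapped. In T0+LPS Hmox1, at 279.7 ± 18.2, overlapped Sod2, at 287 ± 6.26 CPM per kilobase, and Slc7a11, at 35.8 ± 0.248, overlapped Gclc, at 34.8 ± 3.35 (SD, n = 3). Prdx1 stood first in each group.

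**Figure D4:**
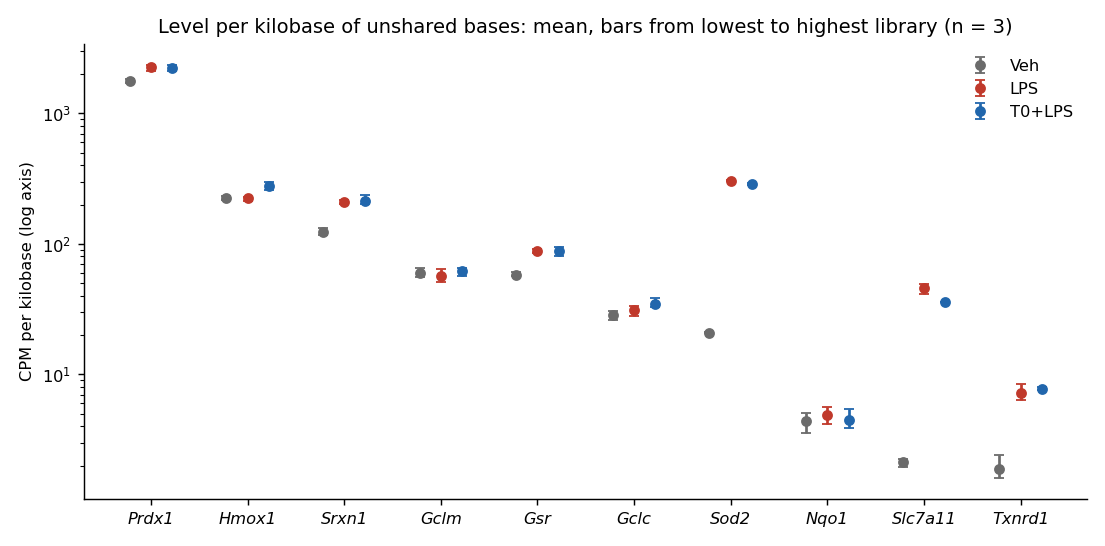
Level of the 10 genes per kilobase of unshared bases in Veh, LPS and T0+LPS, on a log axis. Points are means of 3 libraries and bars reach from the lowest to the highest library; Prdx1 led in every group at 1782 to 2264 CPM per kilobase, and Sod2 rose from the seventh to the second place with LPS.

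Among the genes that control NRF2 or bind with it, Nfe2l2, Maff, Mafg, Sqstm1 and Cul3 rose with LPS. Bach1 fell, and Keap1 and Mafk were not called. Of 10 regulators tested, 6 were higher with LPS, 1 was lower and 3 were not called, beside 32.9% and 31.2% of all symbols called higher and lower. DESeq2 and limma-voom called 5 higher, since Nfe2l1, measured on 242 unshared bases, passed with edgeR only (adjusted p = 0.0458) and lost that call without Veh replicate 1, Veh replicate 3 or LPS replicate 2. Nfe2l2, which encodes NRF2, stood at 567, 552 and 539.6 CPM in Veh, 1717, 1754 and 1712 CPM in LPS and 1814, 1725 and 1765 CPM in T0+LPS. It rose 3.13-fold with LPS (log2 fold change 1.65, standard error 0.04, adjusted p = 1.72e-15, edgeR), with a gap between Veh and LPS far wider than the spread within a group, and T0 gave 0.03 (standard error 0.04, adjusted p = 0.806, edgeR). Maff, a small MAF partner, rose 60.9-fold, from 2.47 to 151 CPM (log2 fold change 5.93, standard error 0.10, adjusted p = 1.46e-17, edgeR). The small MAF gene Mafg rose 1.925-fold (log2 fold change 0.94, standard error 0.05, adjusted p = 2.63e-11, edgeR). Mafk, another small MAF gene, gave -0.04 (standard error 0.05, adjusted p = 0.497, edgeR). Sqstm1, whose product p62 competes with NRF2 for KEAP1, rose 5.25-fold on its 114 unshared bases (log2 fold change 2.39, standard error 0.07, adjusted p = 1.24e-14, edgeR). Cul3, of the ligase that destroys NRF2, rose from 141.4 to 211.6 CPM (log2 fold change 0.58, standard error 0.04, adjusted p = 4.08e-09, edgeR). Keap1, on 1036 unshared bases, stood at 4.46 CPM in Veh and 5.22 CPM in LPS and was not called (adjusted p = 0.215, edgeR). Bach1, the repressor at the same elements, was the regulator called lower, from 266 to 160.3 CPM (log2 fold change -0.73, standard error 0.05, adjusted p = 6.3e-10, edgeR). No regulator was called in T0+LPS against LPS by edgeR, DESeq2 or limma-voom. At an unadjusted p under 0.05, edgeR and limma-voom each had 1 regulator higher and 1 lower, and DESeq2 had 1 lower.

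Of 17 other genes of glutathione metabolism tested, 4 were higher and 4 lower with LPS, in neither direction a larger share than the 32.9% and 31.2% of all symbols. Chac1, a glutathione-degrading enzyme and ATF4 target, rose 14.7-fold from 0.425 to 6.16 CPM (log2 fold change 3.88, standard error 0.38, adjusted p = 2.06e-07, edgeR). Ggct, a cyclotransferase that acts on gamma-glutamyl amino acids, rose 2.54-fold (adjusted p = 3.08e-07, edgeR). The largest decrease was that of Gpx4, the lipid peroxide reductase, from 3.49 CPM in Veh to 2.19 CPM in LPS on 803 unshared bases. Its log2 fold change was -0.66 (adjusted p = 0.0111, edgeR), a call lost without Veh replicate 2. Gstt2 followed at -0.34 (adjusted p = 0.0303, edgeR), a call lost without Veh replicate 1, Veh replicate 3 or LPS replicate 3. DESeq2 called 1 gene of this list lower. Gpx1, the main cytosolic glutathione peroxidase, fell with LPS by 0.33 on the log2 scale (adjusted p = 0.000122, edgeR) and was the list's one call with T0. It stood at 326, 342 and 285 CPM in LPS and 398, 363 and 391 CPM in T0+LPS, a rise of 0.27 on the log2 scale (standard error 0.06, adjusted p = 0.0218, edgeR). That call was lost without replicate 1 of LPS, or replicate 1 or 3 of T0+LPS, with adjusted p up to 0.0848.

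In the thioredoxin list 3 of 12 tested genes were higher with LPS and 2 lower, again no larger a share than among all symbols, and with library totals Prdx6 lost its call (0.05, adjusted p = 0.38, edgeR). Prdx5, a mitochondrial and peroxisomal peroxiredoxin, rose 3.53-fold (log2 fold change 1.82, adjusted p = 1.53e-13, edgeR), and Txn1, thioredoxin itself, rose 1.64-fold (adjusted p = 2.4e-09, edgeR). Sesn1, a sestrin, fell by 1.82 on the log2 scale on 884 unshared bases (adjusted p = 5.36e-09, edgeR), and Msrb1, a methionine sulfoxide reductase, fell by 0.25 (adjusted p = 0.00506, edgeR). None of the 12 was called with T0 by edgeR, DESeq2 or limma-voom, and none had an unadjusted p under 0.05. Of 3 superoxide and peroxide enzymes tested besides Sod2, Cat, catalase, was called lower with LPS at -0.21 (adjusted p = 0.00486, edgeR) although its groups overlapped, and none was called with T0 or had an unadjusted p under 0.05 there with any of these tools. NADPH supply, on which both reducing systems draw, had 1 of 5 tested genes higher with LPS, Pgd of the pentose phosphate pathway at 0.18 (adjusted p = 0.000524, edgeR), and 1 lower, Idh1 at -0.63 on 328 unshared bases (adjusted p = 0.0159, edgeR), a call lost without LPS replicate 1 and with DESeq2 (adjusted p = 0.089), which called 0 genes of this list lower and had 1 lower at an unadjusted p under 0.05. With T0 none of these 5 was called by the 3 tools, and each tool had 1 higher at an unadjusted p under 0.05.

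Of 7 heme and iron genes tested, 0 were called higher and 3 lower with LPS, beside 32.9% and 31.2% of all symbols, and their median log2 fold change was -0.016. None rose at an unadjusted p under 0.05 with edgeR, and DESeq2 and limma-voom also called none higher. Slc40a1, the iron exporter ferroportin, stood at 218, 192 and 191 CPM in Veh, 38.0, 40.6 and 41.8 CPM in LPS and 58.8, 53.4 and 51.8 CPM in T0+LPS. It fell with LPS by 2.31 on the log2 scale (standard error 0.06, adjusted p = 7.34e-15, edgeR), and Fech, the last enzyme of heme synthesis, by 0.22 (adjusted p = 0.00142, edgeR). With T0 on top of LPS Slc40a1 was higher by 0.44 (standard error 0.07, adjusted p = 0.00157, edgeR), so that the 3 groups did not overlap and T0+LPS lay between the others. Of 6 further genes linked to NRF2, 2 were higher and 2 lower with LPS. Marco, a scavenger receptor, rose 20.7-fold from 0.530 to 11.04 CPM (adjusted p = 3.46e-11, edgeR) and Esd 1.42-fold on 133 unshared bases (adjusted p = 0.00417, edgeR). Osgin1, an oxidative stress-induced growth inhibitor, fell by 0.88 (adjusted p = 1.76e-05, edgeR) and Cbr3, a carbonyl reductase, by 0.63 (adjusted p = 5.55e-06, edgeR).

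Osgin1 was the list gene with the largest called change with T0. It stood at 30.6, 22.8 and 28.0 CPM in Veh, 11.3, 16.4 and 16.6 CPM in LPS and 33.2, 25.9 and 25.4 CPM in T0+LPS. The T0+LPS libraries lay above the LPS libraries and overlapped Veh. T0 on top of LPS gave a value of 0.93 on the log2 scale (standard error 0.13, adjusted p = 0.000999, edgeR). Among the subunits of the phagocyte NADPH oxidase, the source of superoxide, 4 of 5 tested were higher with LPS and 0 lower, also by DESeq2 and limma-voom, and none was lower at an unadjusted p under 0.05; the shares of all symbols were 32.9% and 31.2%. With library totals as the scale Cyba, which encodes a membrane subunit (0.03, adjusted p = 0.634, edgeR), and Rac2 (0.10, adjusted p = 0.0755, edgeR) lost that call. Cybb, the catalytic subunit, rose 2.35-fold (adjusted p = 1.71e-13, edgeR), and Ncf4 rose 1.501-fold (adjusted p = 1.78e-09, edgeR). Rac2, the GTPase of the complex, stood at 384, 417 and 375 CPM in LPS and 468, 467 and 475 CPM in T0+LPS, and it rose with T0 by 0.26 on the log2 scale (standard error 0.05, adjusted p = 0.0048, edgeR), after a rise with LPS of 0.38.

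Over the 8 lists together, 20 of 65 tested genes were called higher and 14 lower with LPS, where the shares of all symbols were 32.9% and 31.2%, so the lists were not called more often than other genes. With T0 on top of LPS 4 of 66 were called higher and 0 lower, beside 1.35% and 1.83% of all symbols. There edgeR and limma-voom had 9 higher and 2 lower at an unadjusted p under 0.05 and DESeq2, which also called 4 higher and 0 lower, had 6 and 2. With library totals as the scale, 5 of the 20 genes called higher with LPS lost their call, namely Rac2 (0.10), Cyba (0.03), Prdx6 (0.05), Esd (0.22) and Nfe2l1 (0.43), and Pgd turned to -0.10 and was called lower (adjusted p = 0.0261, edgeR), against a shift of all genes by -0.28. The 4 genes called with T0 kept their direction and call on that scale. Several list genes were counted on a small part of their bases. The unshared bases amounted to 5.2% of the longest row for Nfe2l1, 5.6% for Sqstm1 and 6.3% for Esd. For Idh1 they amounted to 14.4% and for Keap1 to 23.2%. The values of such genes describe those bases and not the whole gene.

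**Figure D5:**
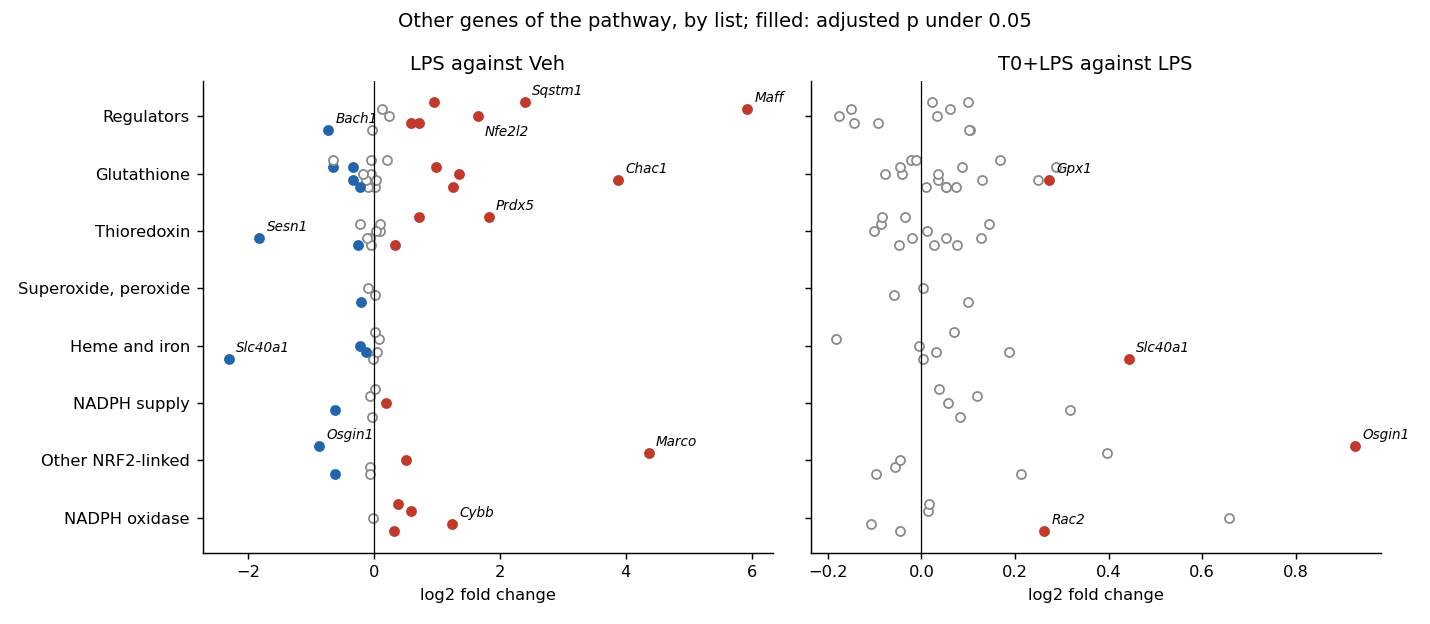
Log2 fold change of the genes of 8 lists in LPS against Veh (left) and in T0+LPS against LPS (right), on different horizontal scales. Points are genes, stacked vertically for visibility, and filled points passed the adjusted p threshold: 20 higher and 14 lower on the left, and Osgin1, Slc40a1, Gpx1 and Rac2 on the right.

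For the members called with T0, the 3 symbols with the most similar profile were found by Pearson's r of log2 CPM over the 9 libraries among 9231 symbols. For Hmox1 they were Atg2a (r = 0.972), Stk17b (r = 0.968) and Gpr65 (r = 0.948). Atg2a stood at 122.6 CPM in Veh, 120.7 CPM in LPS and 134.2 CPM in T0+LPS. In the same order Stk17b stood at 96.95, 97.47 and 114.9 CPM, and Gpr65 at 82.6, 81.3 and 118 CPM. For Slc7a11 they were Tshz1, Pstpip2 and Slc16a10, each with r between 0.9994 and 0.9995. Tshz1 stood at 31.9 CPM in Veh, 207 CPM in LPS and 183 CPM in T0+LPS. These values describe likeness over libraries that share their groups.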

How the data were processed

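The authors trimmed reads with cutadapt, used HISAT2 to align them to the mm10 transcriptome, and counted them on RefSeq transcripts with featureCounts; whether counting used strand is not given in the sources used here. The deposited values are whole read counts, unnormalized. The authors' own tables of a comparison and of gene names were not used.

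The 32850 rows were summed by symbol. edgeR 4.0.16 (R 4.3.3) was used with filterByExpr and TMM, 6 libraries per fit, and standard errors were the log2 fold change over the square root of F. Alternatives were DESeq2 1.42.0, voom in limma 3.58.1, other scalings and filters, all 9 libraries in 1 fit, single rows, a replicate block, an adjusted p under 0.1 and each library left out. Scripts were tested on simulated data. Every within-group pair of libraries differed beyond sampling noise (chi-square per degree of freedom 2.75 to 7.18).

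Named genes are the 10 members, list genes called with T0, and up to 2 largest called increases and decreases per list with LPS, plus Nfe2l2, which encodes NRF2. Nfe2l1, Cul3, Keap1, Mafg and Mafk were named after their values were seen, as were the markers Cd14 and Fcgr1. Prdx6 and Cyba were named because they lost a call with library totals. The members and lists were chosen with earlier results of these data known. P-values set a group difference against the spread between these cultures, estimated with information shared over genes. How many mice the cultures came from is not given in the sources used here.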

Additional observations from a re-analysis of the deposited data

How the results depend on the processing

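In T0+LPS against LPS, Hmox1 (log2 fold change 0.29 to 0.38) and Slc7a11 (-0.41 to -0.28) kept their direction and call in each fit that left out a library and under the 9 other settings, which covered scaling, filter, tool, unit and block. The number of members called higher there ranged from 1 to 2 over the fits that each left out a library, 2 coming without LPS replicate 3, when Gclm was called. In LPS against Veh, the members called lower were 0 with TMM and 2 with library totals (Gclm and Hmox1), and ranged from 0 to 1 with a library left out. In T0+LPS against Veh library totals gave 5 members higher and 1 lower. Library totals put the median of all genes at -0.284 in LPS against Veh and at -0.289 in T0+LPS against Veh. Which scale lies closer to the RNA content of the cells was not tested.

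Reversed signs concerned uncalled members near 0. Library totals gave Nqo1 -0.14 and Gclc -0.16 in LPS against Veh, Gsr -0.00010 in T0+LPS against LPS, and Gclm -0.22 in T0+LPS against Veh, which was then called. DESeq2 gave Nqo1 0.0015 in T0+LPS against Veh. With a library left out, LPS against Veh ranged from -0.042 to 0.015 for Hmox1 and from -0.19 to 0.0014 for Gclm. T0+LPS against LPS ranged from -0.050 to 0.062 for Srxn1, -0.063 to 0.017 for Prdx1 and -0.043 to 0.070 for Gsr. T0+LPS against Veh ranged from -0.17 to 0.075 for Nqo1. The cause was not tested.

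Whether replicate numbers pair the libraries is not given in the sources used here. The correlations of same-numbered deviations from the group means were between -0.025 and 0.072. Same-numbered libraries thus showed no clear shared deviation, which cannot exclude a pairing by origin or day. With the replicate number as a block, 6 members were called higher and 0 lower in LPS against Veh, 1 and 1 in T0+LPS against LPS, and 8 and 0 in T0+LPS against Veh. Over all symbols, T0+LPS against LPS gave 126 higher and 171 lower, against 225 and 285 without a filter, 59 and 82 without LPS replicate 1, 86 and 103 without T0+LPS replicate 1, and 78 and 94 without T0+LPS replicate 2. Library totals gave 1696 higher and 5408 lower, against 3148 and 2982, in LPS against Veh, and 1661 and 5520, against 3121 and 3172, in T0+LPS against Veh. Among the members, Txnrd1, counted on 602 unshared bases, and Nqo1 had the widest standard errors in each comparison.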
